A study of Rattus norvegicus with 6 samples.

Results

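Expression of a small set of genes that act at the apical junctions of the embryonic brain was examined in the tish rat. The 4 genes were Cdh2 (gene ID ENSRNOG00000015602), Ctnnb1 (ENSRNOG00000054172), Tjp1 (ENSRNOG00000011077) and Rhoa (ENSRNOG00000050519). They are among 32754 Ensembl gene IDs counted, and were chosen by name as junction genes. The pairing of these IDs with their symbols came with the choice of the genes. It was not checked, because the deposited table gives IDs alone and the gene table used here, which lists 47357 rat genes of the assembly GRCr8, gives an Ensembl ID for 0 of them. All 4 had enough reads to be tested, among 14818 genes that did.

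RNA was sequenced from rat embryonic cortex at day 18 of development (E18). The 3 control embryos were Sprague-Dawley (SD), labelled cortex, and the 3 others were of the tish line, labelled neocortex. The series title ties a deletion in Eml1 to the bilateral subcortical heterotopia of that line, a band of misplaced neurons beneath the cortex, and the labels give no allele or Eml1 genotype for a single animal. Each group held 2 males (replicates 1 and 3) and 1 female (replicate 2), with 1 animal per library. By the extraction protocol, SD tissue was neocortex and tish tissue was cortex that included both the normally placed and the heterotopic part. Genotype and the tissue taken cannot be told apart. Litters were not given in the sources used here. If the embryos of a group shared a litter, litter could not be told apart from genotype either. The edgeR p-values set the difference between the groups against the spread between embryos of the same group.

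In the developing cortex, radial glia, the stem cells of the ventricular zone, hold on to one another at the ventricular surface through a belt of adherens junctions. N-cadherin, the product of Cdh2, spans the membrane and binds N-cadherin of the neighbouring cell. β-catenin, the product of Ctnnb1, binds the cytoplasmic tail of N-cadherin and links it, through α-catenin, to actin. The same protein carries the canonical Wnt signal to the nucleus. ZO-1, the product of Tjp1, is a scaffold of tight junctions and is also found at the adherens belt of neural progenitors. RhoA, the product of Rhoa, is a small GTPase that controls the actin and myosin attached to this belt. All 4 genes are also expressed in neurons, endothelial cells and other cells. The counts come from whole pieces of tissue, so they neither place a transcript at the apical surface nor tell fewer cells of a type from less RNA per cell.

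Library totals ran from 15625915 to 20844504 counts. SD 1 was the library least like its replicates over all genes (its 2 pairs had a chi-square per degree of freedom of 21.6 and 24.5, and the remaining pair of controls 14.6). In the other group the largest value, 15.4, was between tish 2 and tish 3, and the pairs with tish 1 had 8.59 and 8.56. By this measure tish 3 was no further from its replicates than tish 2. Values without SD 1 and tish 3, a pair chosen from earlier results of these data, are given beside each gene. Markers of cell types and of other tissues were not analysed here, because no ID could be paired with their symbols, and the same holds for Eml1 and for longer lists of junction genes.

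Ctnnb1 transcripts were lower in tish, while Cdh2, Tjp1 and Rhoa did not pass the test in either direction. The Ctnnb1 level in tish was 0.678 of that in SD (95% interval 0.598 to 0.769). For the other 3 genes the estimates were 0.932 (Cdh2), 0.949 (Tjp1) and 0.939 (Rhoa) of the SD level, and each interval included 1. In all, 1 of the 4 genes was called lower and 0 higher, against 12.9% and 13.4% of all tested genes. A gene was called at an adjusted p under 0.05 in edgeR's quasi-likelihood test, with Benjamini-Hochberg adjustment over all tested genes, of which 26.3% were called in either direction. One call among 4 genes is close to that share, so the count says nothing particular about junction genes as a group. The median log2 fold change was -0.10 over the 4 genes and -0.02 over all tested genes.

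**Figure D1:**
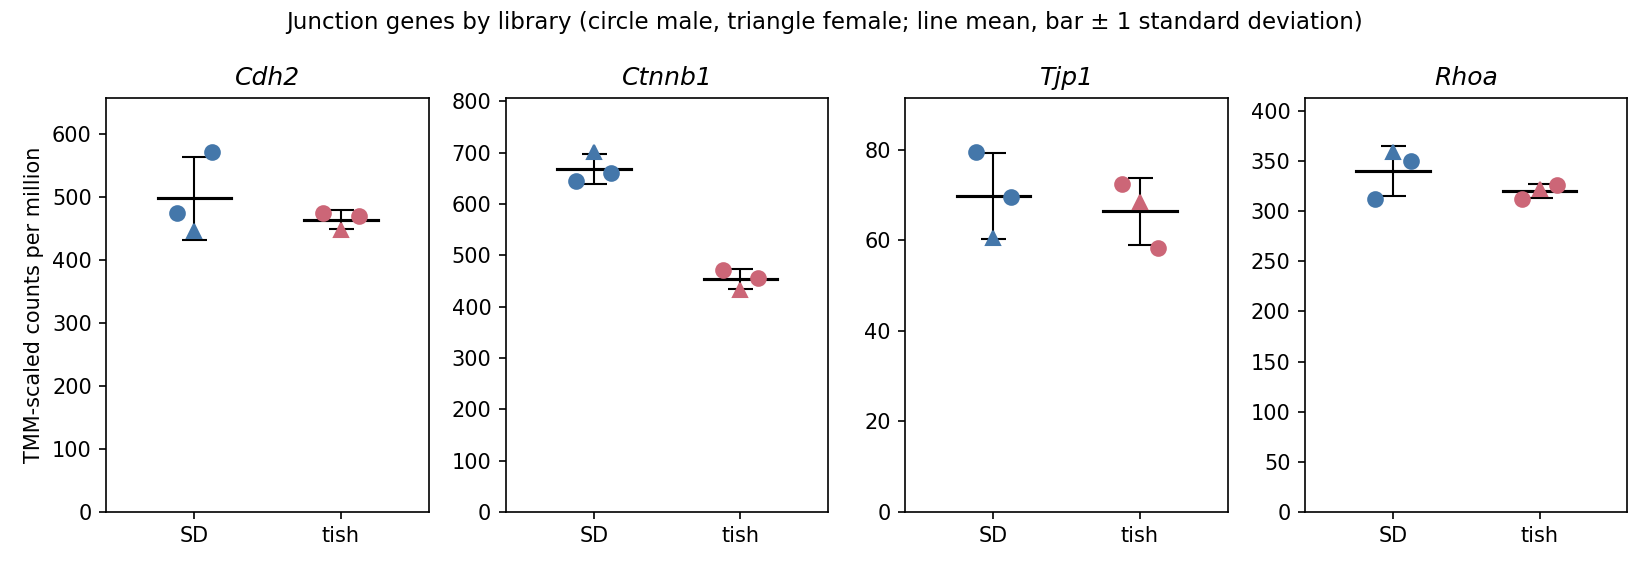
Level of each gene in every library, in TMM-scaled CPM (vertical axis from 0), for SD and tish. Circles are males, triangles females, horizontal lines group means and bars 1 standard deviation (n = 3 each). The 3 tish values of Ctnnb1, 432 to 471, lie below its 3 SD values, 644 to 701, and the groups overlap for Cdh2, Tjp1 and Rhoa.

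Levels are given in CPM, in which every library is brought to the same total, after TMM scaling, which adjusts the library totals for differences in composition. They can be compared between libraries for 1 gene, but not between genes, since they are not divided by transcript length. Values of a group are listed in the order of replicates 1, 2 and 3.

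N-cadherin is the transmembrane part of the belt. In the control embryos Cdh2 had 8349, 8262 and 10661 counts, corresponding to 475, 446 and 571 CPM. The tish embryos gave 7422, 9216 and 9247 counts for it, corresponding to 474, 447 and 470 CPM. The 3 tish embryos were close to one another and to SD 1 and SD 2, and SD 3 alone was higher. The group levels were 497 ± 65.6 CPM in the controls and 464 ± 14.3 CPM in tish (mean ± standard deviation of 3 embryos). The log2 fold change of -0.10 (SE 0.103, 95% interval -0.33 to 0.13) did not pass the test (edgeR adjusted p = 0.509). Its sign rested on SD 3, without which it was 0.00485 (edgeR adjusted p = 0.978). Without SD 1 and tish 3 it was -0.14.

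β-catenin joins the cadherin to the cytoskeleton and also acts as a transcriptional co-activator in Wnt signalling. In the control embryos Ctnnb1 had 11306, 12984 and 12308 counts, corresponding to 644, 701 and 660 CPM. The tish embryos gave 7374, 8896 and 8974 counts for it, corresponding to 471, 432 and 456 CPM. Each tish library was lower than each SD library, and the 9 possible ratios of a tish to an SD library ran from 0.617 to 0.731. The groups did not overlap, which was also so for 44.3% of all tested genes, with tish below SD for 22.6% and above it for 21.7%.

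The mean level of Ctnnb1 was 668 ± 29.3 CPM in the controls and 453 ± 19.6 CPM in tish (mean ± standard deviation of 3 embryos). Its log2 fold change was -0.56 (SE 0.0805, 95% interval -0.74 to -0.38, edgeR adjusted p = 0.00146), a level 32.2% lower in tish with an interval of 23.1% to 40.2% lower. The difference was large beside the spread between embryos, whose coefficient of variation was 4.38% in SD and 4.33% in tish. Counting error was smaller still, at 0.878% to 1.16% per library. Without SD 1 and tish 3 the log2 fold change was -0.59 (edgeR adjusted p = 0.00355).

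Ctnnb1 was among the genes with the most reads, above 98.7% of tested genes on edgeR's average abundance, which is not divided by transcript length. Its change exceeded that of most tested genes, since 76.8% had a log2 fold change as small or smaller in either direction. With signs ignored, the median change among tested genes was 0.26 on the log2 scale. Of 5 classes of equal size formed by that average abundance, the highest held Ctnnb1, Cdh2 and Rhoa among its 2964 genes. In that class 89.7% had a change as small or smaller than that of Ctnnb1, and 3.48% a log2 fold change as low or lower. Of its genes, 12.5% of genes were called lower and 17.8% higher in tish.

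ZO-1 is the scaffold of the set, and its gene gave the fewest reads. In the control embryos Tjp1 had 1396, 1121 and 1299 counts, corresponding to 79.5, 60.5 and 69.6 CPM. The tish embryos gave 1135, 1408 and 1144 counts for it, corresponding to 72.5, 68.4 and 58.2 CPM. The highest library was SD 1 and the lowest tish 3, and the other 4 lay between them with the genotypes interleaved. The means were 69.9 ± 9.51 CPM in the controls and 66.3 ± 7.34 CPM in tish (mean ± standard deviation of 3 embryos).

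The log2 fold change of Tjp1 was -0.08 (SE 0.122, 95% interval -0.35 to 0.20) and did not pass the test (edgeR adjusted p = 0.694). The direction rested on SD 1, its highest library, and tish 3, its lowest. Leaving out either of them was bound to raise the estimate. It was 0.03 without SD 1, 0.01 without tish 3 and 0.11 without both (edgeR adjusted p = 0.861, 0.961 and 0.508). Because the 95% interval includes 0, no direction can be given for this gene. Its spread between embryos, 13.6% in SD and 11.1% in tish, was well above the counting error of 2.67% to 2.99% per library.

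RhoA is the regulator in the set. In the control embryos Rhoa had 5472, 6661 and 6540 counts, corresponding to 312, 359 and 350 CPM. The tish embryos gave 4889, 6624 and 6403 counts for it, corresponding to 312, 322 and 326 CPM. SD 1 was level with the lowest tish library, and SD 2 and SD 3 were higher than all 3 tish libraries. The means were 340 ± 25.4 CPM in the controls and 320 ± 6.98 CPM in tish (mean ± standard deviation of 3 embryos). The log2 fold change of -0.09 (SE 0.0829, 95% interval -0.28 to 0.10) did not pass the test (edgeR adjusted p = 0.462), and it was -0.16 without SD 1 and tish 3 (edgeR adjusted p = 0.225).

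**Figure D2:**
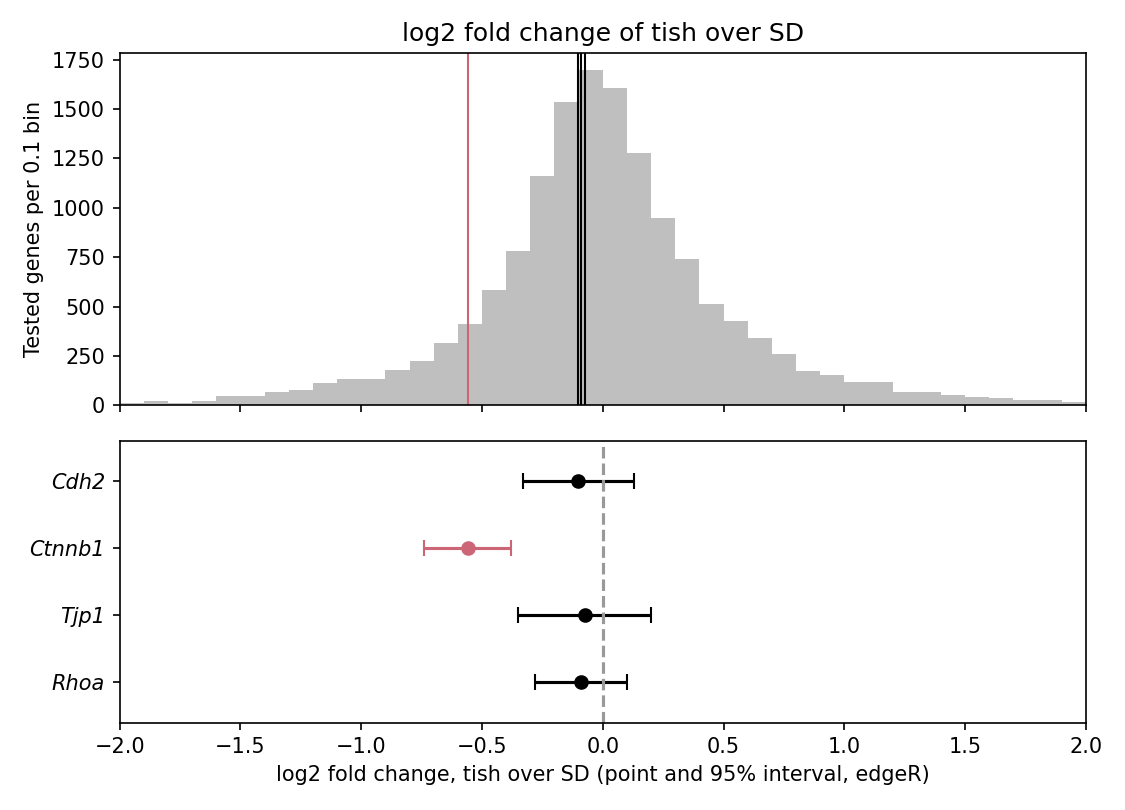
Upper panel: number of tested genes in bins of log2 fold change of tish over SD, 0.1 wide, with the 4 junction genes as vertical lines (Ctnnb1 in red). Lower panel: the log2 fold change of each gene on the same axis with its 95% interval from edgeR. The axis is limited to changes between -2 and 2. Ctnnb1 lies at -0.56 with an interval that ends at -0.38, and the other 3 lie between -0.10 and -0.08 with intervals that include 0.

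The intervals set what these 6 embryos could and could not show for the genes that did not pass. A fall in Cdh2 of more than 20.5%, in Tjp1 of more than 21.5% or in Rhoa of more than 17.5% lies outside the 95% intervals, as does a rise of more than 9.41%, 14.8% or 6.88%. Smaller changes of each gene remain possible. The intervals of Cdh2 and Rhoa do not include the estimate for Ctnnb1, and neither does that of Tjp1. This leaves out the interval of Ctnnb1 itself, and is no test of a difference between genes. Nor is it such a test that a gene passed and another did not. The genes were therefore also compared with one another inside each library.

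The balance between 2 junction transcripts was measured as the ratio of their counts in the same library, which does not depend on scaling between libraries. For Ctnnb1 over Rhoa this count ratio was 2.07, 1.95 and 1.88 in the controls and 1.51, 1.34 and 1.40 in tish. For Cdh2 over Ctnnb1 it was 0.738, 0.636 and 0.866 in SD and 1.01, 1.04 and 1.03 in tish. Reads of the cadherin gene were thus close in number to those of its catenin partner in tish, with little spread. Each SD embryo held fewer reads of the cadherin gene than of the catenin gene. In tish 1 the counts of Cdh2 and Ctnnb1, 7422 and 7374, differed by less than the counting error of 1.16% each. Because reads depend on transcript length, a ratio near 1 does not mean equal numbers of molecules. For Ctnnb1 over Tjp1 the count ratio was 8.10, 11.6 and 9.47 in SD and 6.50, 6.32 and 7.84 in tish.

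In each of the 3 pairs with Ctnnb1 the groups did not overlap, as was so for Ctnnb1 itself. Of single tested genes, 44.3% did not overlap, and the share over ratios of other genes was not computed. The mean log2 ratio differed by 0.47 for Cdh2 over Ctnnb1 (tish minus SD, a fold of 1.38), by -0.49 for Ctnnb1 over Tjp1 (0.713) and by -0.47 for Ctnnb1 over Rhoa (0.721). Each gave an exact two-sided permutation p of 0.1, the smallest that 3 embryos against 3 can give, and 0.2 after Benjamini-Hochberg adjustment over the 6 pairs. This permutation test therefore cannot reach 0.05 with 3 embryos in each group. Whether Ctnnb1 changed by a different amount than the other 3 genes was not settled by it. The 3 ratios share Ctnnb1, and are not independent of one another. With males alone the difference for Ctnnb1 over Tjp1 was smaller, at -0.295 on the log2 scale.

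Ratios among Cdh2, Tjp1 and Rhoa overlapped between the groups. The mean log2 ratio differed by -0.02 for Cdh2 over Tjp1, by -0.01 for Cdh2 over Rhoa and by 0.02 for Tjp1 over Rhoa (exact two-sided permutation p = 0.9, 0.9 and 1, each 1 after adjustment). Their standard deviation between embryos of 1 group, 0.06 to 0.30 on the log2 scale, was larger than these differences. The sign of each changed when single libraries were left out.

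**Figure D3:**
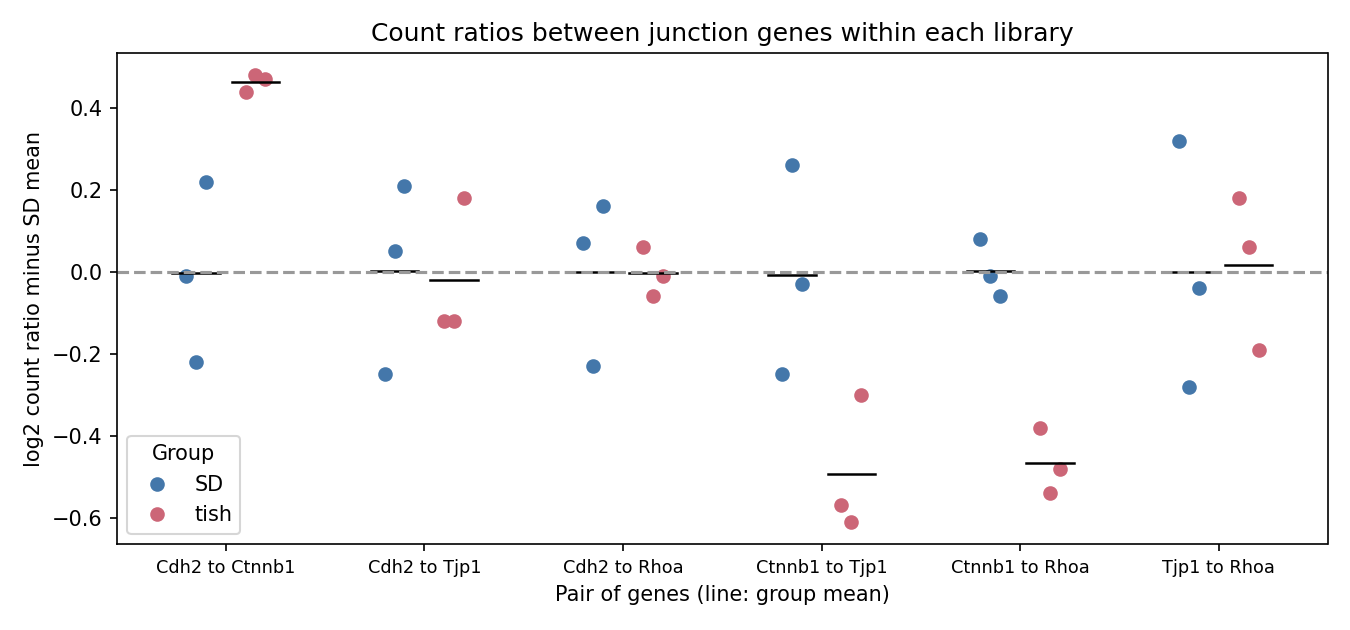
log2 ratio of the counts of 2 junction genes in each library, shown relative to the mean of the 3 SD libraries for that pair (vertical axis, log2), with 1 point per library and a line at each group mean. The tish points leave the SD range in the 3 pairs that include Ctnnb1, with mean differences of 0.47, -0.49 and -0.47, and lie among the SD points in the other 3 pairs.

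Within males, 2 against 2, and within the pair of females, Ctnnb1 was lower in tish in both. Because every tish library was below every SD library, that direction was fixed in advance and adds no support. The mean of Ctnnb1 was 652 CPM in SD males and 464 CPM in tish males, a fold of 0.711 (edgeR on males alone, adjusted p = 0.0206). It was 701 CPM in the SD female and 432 CPM in the tish female, a fold of 0.617, with no replicate. Tjp1 was 74.5 CPM in SD males and 65.3 CPM in tish males, but 60.5 CPM in the SD female and 68.4 CPM in the tish female. Cdh2 was 523 and 472 CPM in SD and tish males and 446 and 447 CPM in the females. Rhoa was 331 and 319 CPM in the males and 359 and 322 CPM in the females. With 1 female per genotype, whether the genotype difference depends on sex was not tested.

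The call on Ctnnb1 held in each of the 19 alternatives run. Those with thresholds of 0.01 and 0.1 reused the reported fit, so 17 settings gave new values. The log2 fold change of Ctnnb1 lay between -0.596 without scaling factors and -0.485 with males alone, and its adjusted p was at most 0.0206. Leaving out each embryo in turn gave -0.585 to -0.520. DESeq2 gave -0.55 and limma voom -0.56. Cdh2, Tjp1 and Rhoa were called in none of the alternatives, with adjusted p from 0.193 to 0.978 over these 3 genes.

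**Figure D4:**
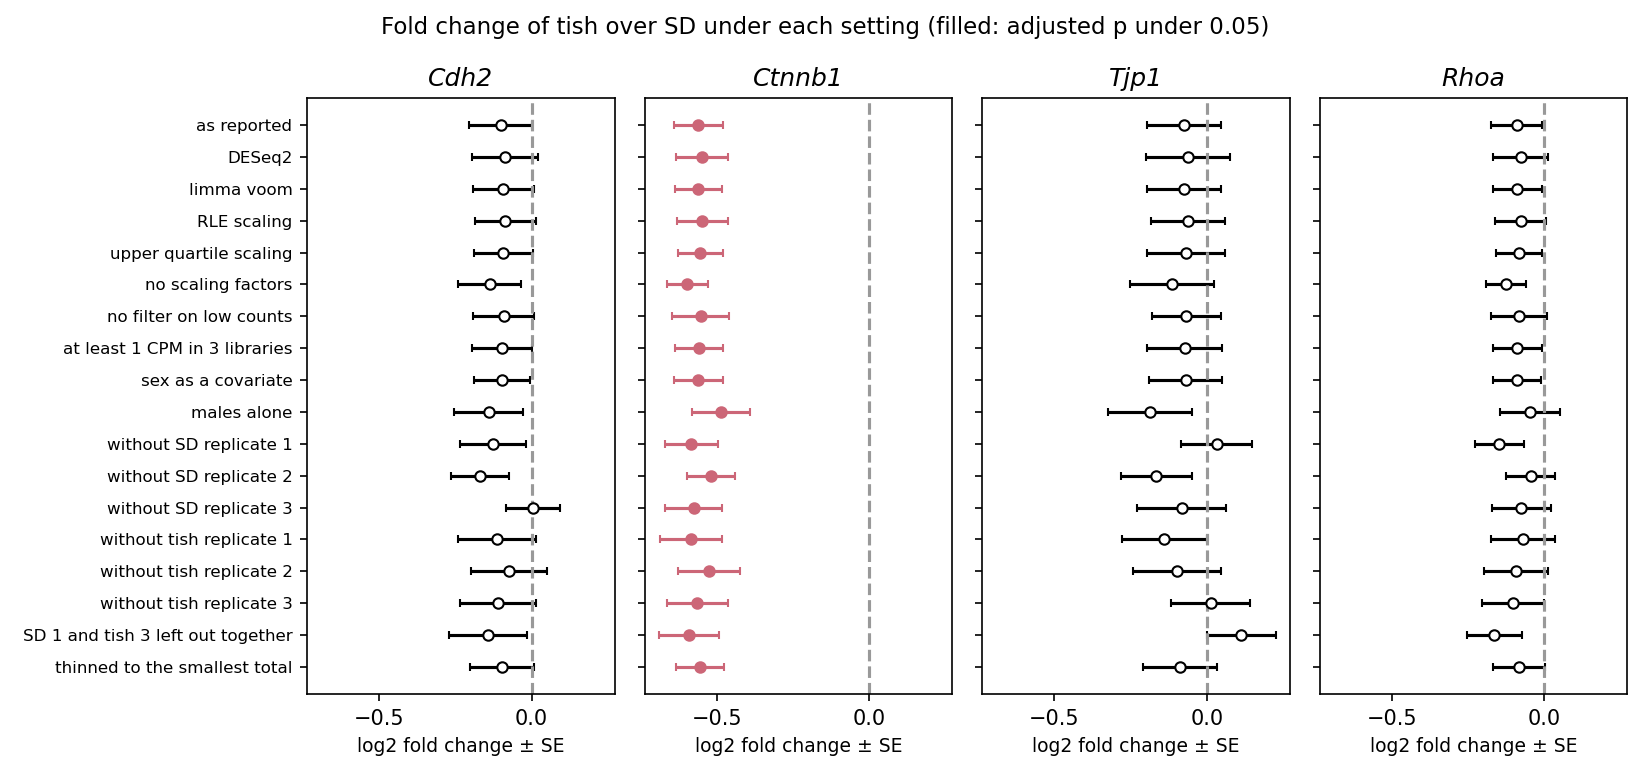
log2 fold change of tish over SD with its standard error (horizontal axis) for each gene under the reported setting and 17 others (vertical axis), with filled points where the adjusted p was under 0.05. All points of Ctnnb1 are filled and lie between -0.596 and -0.485. Those of the other 3 genes are open, and for Cdh2 and Tjp1 they fall on both sides of 0.

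Other genes with a pattern like that of a junction gene were looked for by Pearson's r of log2 CPM over the 6 libraries, among 13808 genes with a mean of at least 1 CPM. With 6 libraries and so many genes, these values are given as a description. The gene closest to Ctnnb1 was ENSRNOG00000007489 (r = 0.998 over the 6 libraries), with 90.1, 106 and 97.9 CPM in the controls and 60.6, 52.5 and 57.3 CPM in tish. Chosen for its likeness to Ctnnb1, it was bound to be lower in tish as well, which is no separate finding (log2 fold change -0.79, SE 0.0949, edgeR adjusted p = 0.000645). As many as 1381 genes had an r above 0.9 with Ctnnb1, and because Ctnnb1 differed between the genotypes, any gene that differed in the same direction shares part of its pattern.

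The gene closest to Cdh2 was ENSRNOG00000030294 (r = 0.987 over the 6 libraries), with 129, 116 and 149 CPM in SD and 125, 118 and 124 CPM in tish. Like Cdh2 it was highest in SD 3, and its log2 fold change of -0.10 did not pass the test (edgeR adjusted p = 0.486). An r above 0.9 was found for 93 genes with Cdh2, 44 with Tjp1 and 419 with Rhoa. Neither ID was paired with a symbol here.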

How the data were processed

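The deposited file holds counts of reads for each Ensembl gene ID in 6 libraries, which the authors had not normalized. STAR, the build Rnor_6.0 and featureCounts 1.5.0 are named in the submitters' processing notes. Strand handling, multi-mapping reads and the annotation release were not given in the sources used here. Reads shared with overlapping genes, antisense genes or copies are therefore uncertain. The table repeats 32751 IDs with 0 differing values and has 1 line that names no gene, at 0 counts. The first occurrence of each ID was used.

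In R 4.3.3 with edgeR 4.0.16, genes were kept by filterByExpr (minimum count 10), scaled by TMM and tested with robust glmQLFit and glmQLFTest on genotype alone. SE is the log2 fold change divided by the square root of F, and 95% intervals use the t distribution on edgeR's total degrees of freedom. Chi-square comparisons of replicates took genes with 20 or more counts over both libraries, and no 2 replicates of the same group agreed within sampling noise. Ratios of counts were compared by exact permutation over samples. log2 CPM for pattern likeness used a prior count of 2. The procedure was also run on simulated counts, with a far smaller share of changed genes than was called here. Rises and falls were equal in number there, and no result given here rests on that run. Alternatives included DESeq2 1.42.0 and voom in limma 3.58.1. The genes, lists and tests were chosen with earlier results of these data known. The text names the 4 genes and, for each, the most similar other gene, up to 2 IDs per direction. All 4 similar genes had a negative log2 fold change, so those of Cdh2 and Ctnnb1 are printed. Lists of junction genes and cell type markers had been fixed by symbol and could not be used.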

Additional observations from a re-analysis of the deposited data

Results flagged for a closer look

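Cdh2 pointed in different directions in the 2 sexes. Both tish males were below both SD males, by -0.14 on the log2 scale (tish minus SD), while the tish female was above the SD female by 0.01. Of the males, SD 1 (475 CPM) differed from tish 1 (474 CPM) by less than the counting error of 1.09% to 1.16% per library, and the male difference rests on SD 3 (571 CPM). The female difference was smaller than its counting error (0.0219 on the log2 scale), and the difference between the sexes was not tested, with 1 female per genotype.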

How the results depend on the processing

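Of 76 values for the 4 genes under other settings, 72 kept direction and side of the threshold, and 4 changed sign without passing the test. These were Cdh2 without SD 3 (0.00485) and Tjp1 without SD 1 (0.0321), without tish 3 (0.0127) and without both SD 1 and tish 3 (0.114). Values under thresholds of 0.01 and 0.1 are counted among the 76, but reused the reported fit and could not change sign. With 1 library left out, log2 fold changes ran from -0.169 to 0.00485 for Cdh2, -0.585 to -0.520 for Ctnnb1, -0.165 to 0.0321 for Tjp1 and -0.147 to -0.0451 for Rhoa. Of 54 values for ratios, 40 kept their sign and 14 did not, all among Cdh2, Tjp1 and Rhoa. With males alone the difference in log2 ratio was 0.0534 for Cdh2 over Tjp1 and -0.144 for Tjp1 over Rhoa, and without SD 1 and tish 3 it was 0.0315 for Cdh2 over Rhoa. With 1 library left out these ratios ran from -0.148 to 0.0805 (Cdh2 over Tjp1), -0.121 to 0.0762 (Cdh2 over Rhoa) and -0.124 to 0.176 (Tjp1 over Rhoa). The cause was not tested. Those with Ctnnb1 kept their sign, at 0.357 to 0.579 (Cdh2 over Ctnnb1), -0.612 to -0.354 (Ctnnb1 over Tjp1) and -0.518 to -0.434 (Ctnnb1 over Rhoa) with 1 library left out. With males alone they were 0.349, -0.295 and -0.440, and without SD 1 and tish 3 they were 0.460, -0.709 and -0.428, in the same order. Alternatives on lists by symbol were not run, since no ID could be paired. No paired analysis was possible because the numbering of replicates only follows sample order. The 4 genes had at least 1121 counts in every library, where counting error was at most 2.99%.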
